A study of Rattus norvegicus with 27 samples.

Results

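The genes of amyloid precursor processing and of tau were described by 9 members, App, Aplp1, Aplp2, Bace1, Psen2, Mapt, Gsk3b, Ide and Mme, chosen by the gene name that the array gives to a probe. The rule found 10 probes of 8 members among 41012 probes that are not controls and carry 35561 distinct names: Aplp2 and Mapt had 2 probes each and the other 6 genes had 1 probe each. Aplp1 had no probe by name. Its level comes from A_42_P827480, which the array calls RGD1561211_predicted, a name that the RefSeq gene table lists as a synonym of Aplp1, and it was kept out of every count. All 10 probes were well above background on all 27 arrays, so each passed the filter on dim probes in every group, and none was saturated.

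RNA came from the hippocampus, prefrontal cortex and striatum of male rats aged 10 weeks, with 9 animals per group pooled by 3, so that each region of each group had 3 pools and each pool 1 array. The Goto-Kakizaki rats, a lean strain derived from Wistar stock in which diabetes appears without treatment, served as the type 2 diabetes model and had a mean blood sugar of 13.9 mmol/l. The STZ rats were Wistar rats given 65 mg/kg of streptozotocin, a toxin of the insulin-producing beta cells, 4 weeks earlier as the type 1 model, and they had a mean of 26.34 mmol/l. The controls were Wistar rats of the same age without streptozotocin, with a mean of 7.64 mmol/l. Goto-Kakizaki rats differ from controls in strain as well as in diabetes, and these cannot be told apart. STZ rats entered the study only when their blood sugar was high. Both models were set against the same control arrays, and all 3 regions came from the same animals, so the comparisons are not independent of each other.

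App encodes the amyloid precursor protein, a membrane protein that is cut either within the amyloid-beta stretch by alpha-secretases or at its start by the beta-secretase Bace1, after which gamma-secretase, with a presenilin as its catalytic subunit, releases the remaining fragment. Insulin-degrading enzyme (Ide) and neprilysin (Mme) are peptidases that break amyloid-beta down. Tau, the product of Mapt, binds and stabilises axonal microtubules, and glycogen synthase kinase 3 beta (Gsk3b), an enzyme held in check by insulin signalling, is among the kinases that phosphorylate it.

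The probes are 60 bases long, and their place in a transcript is not given in the sources used here. Sequences of probes on which results turn are printed below, since the probes of 1 gene did not always move alike. Capitals in the App probe and in the Aplp2 probe A_44_P482512 mark the whole codons of a reading frame without a stop, picked from background knowledge of the proteins. Read in 3 frames on the printed strand, A_42_P502759 and A_44_P550237 also had 1 open frame each over their 60 bases, and the Mme probe had 0, so the frame alone places no probe in coding sequence. The App probe lies in the stretch that encodes amyloid-beta, which is background knowledge and not a result. Of the other printed probes the first 30 bases are shown, with the triplets TAA, TAG and TGA in capitals in any frame. The longest run of bases that the 2 Aplp2 probes share is 6.
App A_44_P500880: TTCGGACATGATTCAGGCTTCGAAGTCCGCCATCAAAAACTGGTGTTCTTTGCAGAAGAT
Aplp2 A_44_P482512: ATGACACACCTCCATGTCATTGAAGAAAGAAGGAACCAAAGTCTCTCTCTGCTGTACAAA
Aplp2 A_42_P502759: TAAtgtcacgcagctggagtTGAtgccaca
Mapt A_44_P550237: TAGgtctgtggctttaTGAgccttcaaact
Mme A_43_P11484: atcatattgcTGAaaatcttcaaacacaaa

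Levels are log2 signals relative to the 75th percentile of the array, so that 0 is that percentile and 1 unit is a 2-fold difference. A probe was called when limma's adjusted p was under 0.05 and the change at least 2-fold, and calls at any size are given beside it. The 8 striatal markers fixed for the tissue check summed to 111 to 256 times the 75th percentile on striatal arrays, against 8.25 to 23.1 on prefrontal and 3.94 to 5.43 on hippocampal arrays, and 5 of 6 cortical markers had a probe and summed to 6.82 to 9.40 in the prefrontal cortex, against 1.27 to 1.94 in the striatum and 3.28 to 5.04 in the hippocampus. The 6 hippocampal markers summed to 3.10 to 4.24 in the hippocampus, against 1.21 to 2.84 in the other regions, with Lct counted as not above background in every group. Choroid plexus markers were high in some hippocampal pools (21.0 to 154 in Goto-Kakizaki rats, 3.33 to 3.90 in STZ rats and 2.85 to 124 in controls). Spots left out as outliers add nothing to the marker sums, here and below, so a low sum can reflect a spot left out. The arrays lay on 7 slides, and arrays that shared slide 5, 6 or 7 deviated together from their group means (mean correlations of 0.466, 0.652 and 0.480, against -0.03 between slides). In bulk tissue, fewer cells of a type and less RNA per cell cannot be told apart. Nothing in the sources links pools across regions. The limma p-values rest on the spread between pools, taken as 1 value per probe for all 9 groups. The groups were not equally variable. Their median SD on the log2 scale was 0.29 for striatal Goto-Kakizaki pools and 0.27 for striatal controls. It was only 0.09 for hippocampal Goto-Kakizaki pools, and 0.11 to 0.21 for the remaining groups. The p-values can therefore be too small where pools varied most and too large where they varied least.

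**Figure D1:**
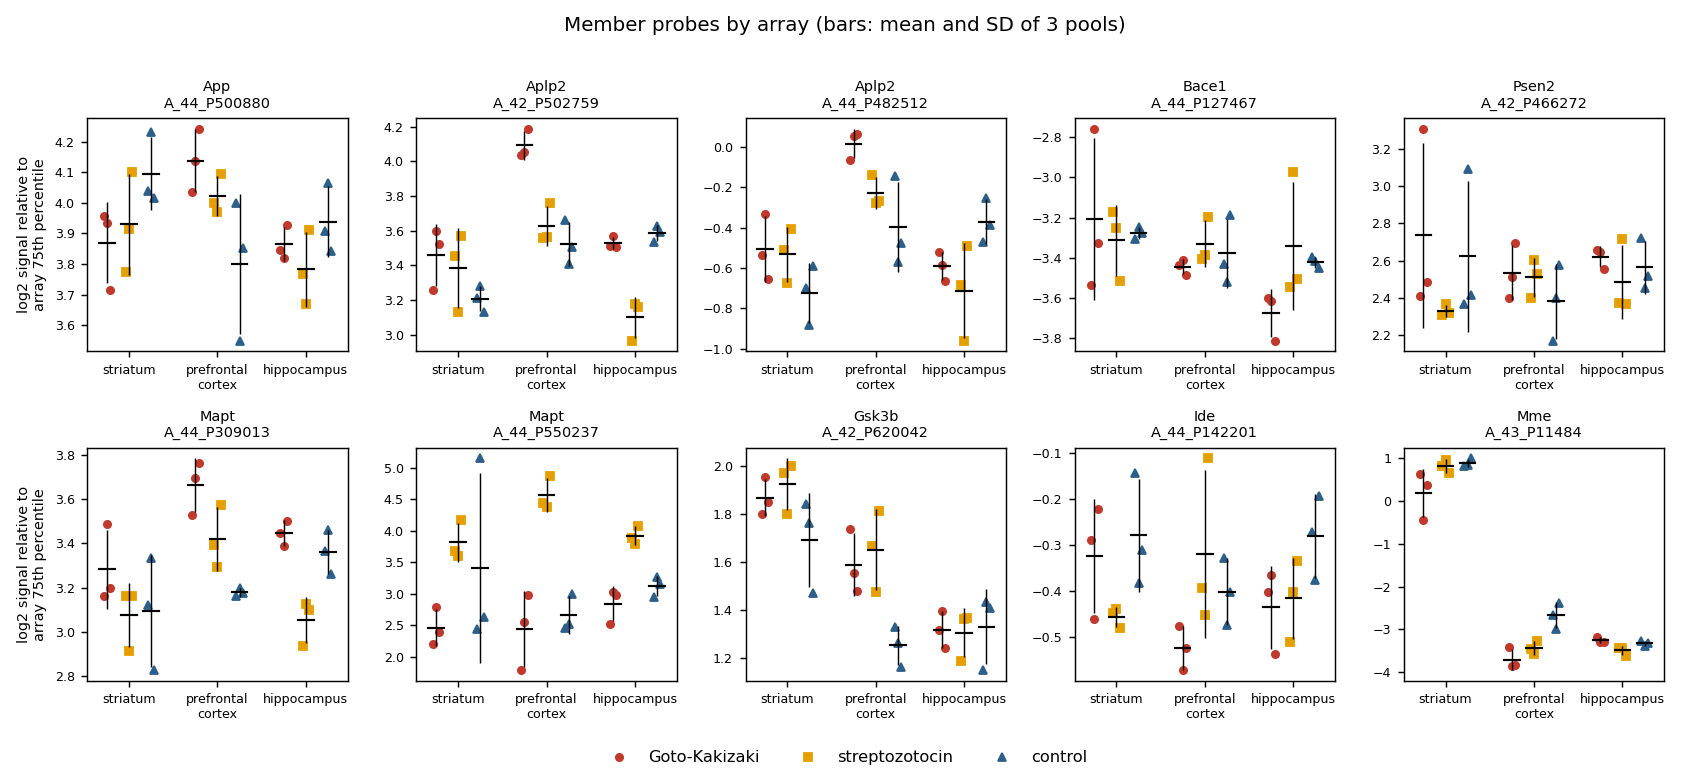
Log2 signal relative to the array's 75th percentile (vertical axes, which differ between panels) of the 10 member probes in 3 regions, for Goto-Kakizaki rats (circles), STZ rats (squares) and controls (triangles), 1 point per pool, with horizontal bars for means and vertical bars for the SD of 3 pools. Mme is high in the striatum and low elsewhere, and Mapt A_44_P550237 is higher in STZ than in Goto-Kakizaki rats in each region.

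The question of the first comparisons was which of these transcripts differ between each diabetic model and controls. Against controls, the prefrontal cortex held most of the differences. In Goto-Kakizaki rats Mme fell there, while Aplp2 (A_42_P502759) and Mapt (A_44_P309013) rose, and in STZ rats Mapt (A_44_P550237) rose and Mme fell. In the Goto-Kakizaki prefrontal cortex 1 of 10 probes was called, Mme, where 2.49% of 30902 tested probes were, and 3 of 10 passed at any size, where 8.8% did. In the STZ prefrontal cortex 1 of 10 was called, Mapt, where 0.98% of 30911 were, and 2 passed at any size, where 2.67% did. The median change of the 10 probes was 0.25 in Goto-Kakizaki rats, against 0.01 over all tested probes, and 0.15 in STZ rats, against 0.01. In the striatum no probe was called in Goto-Kakizaki rats by limma (background 3.09%), 1 passed at any size, Mme (background 13.8%), and 3 had an unadjusted p under 0.05. None was called in the STZ striatum (0.866%) or passed at any size (3.25%), and 0 had an unadjusted p under 0.05. In the hippocampus no probe was called in Goto-Kakizaki rats (1.92%) or passed at any size (5.11%), again with 0 at an unadjusted p under 0.05. None was called in the STZ hippocampus (0.639%), 1 passed at any size, Aplp2 (2.2%), and 3 had an unadjusted p under 0.05. By the methods' t-test with Benjamini-Hochberg adjustment, no member probe passed in any of these 6 comparisons, and without adjustment 4 probes passed in the Goto-Kakizaki prefrontal cortex, 3 in the STZ hippocampus, 3 in the STZ prefrontal cortex and 0 in the other 3.

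**Figure D2:**
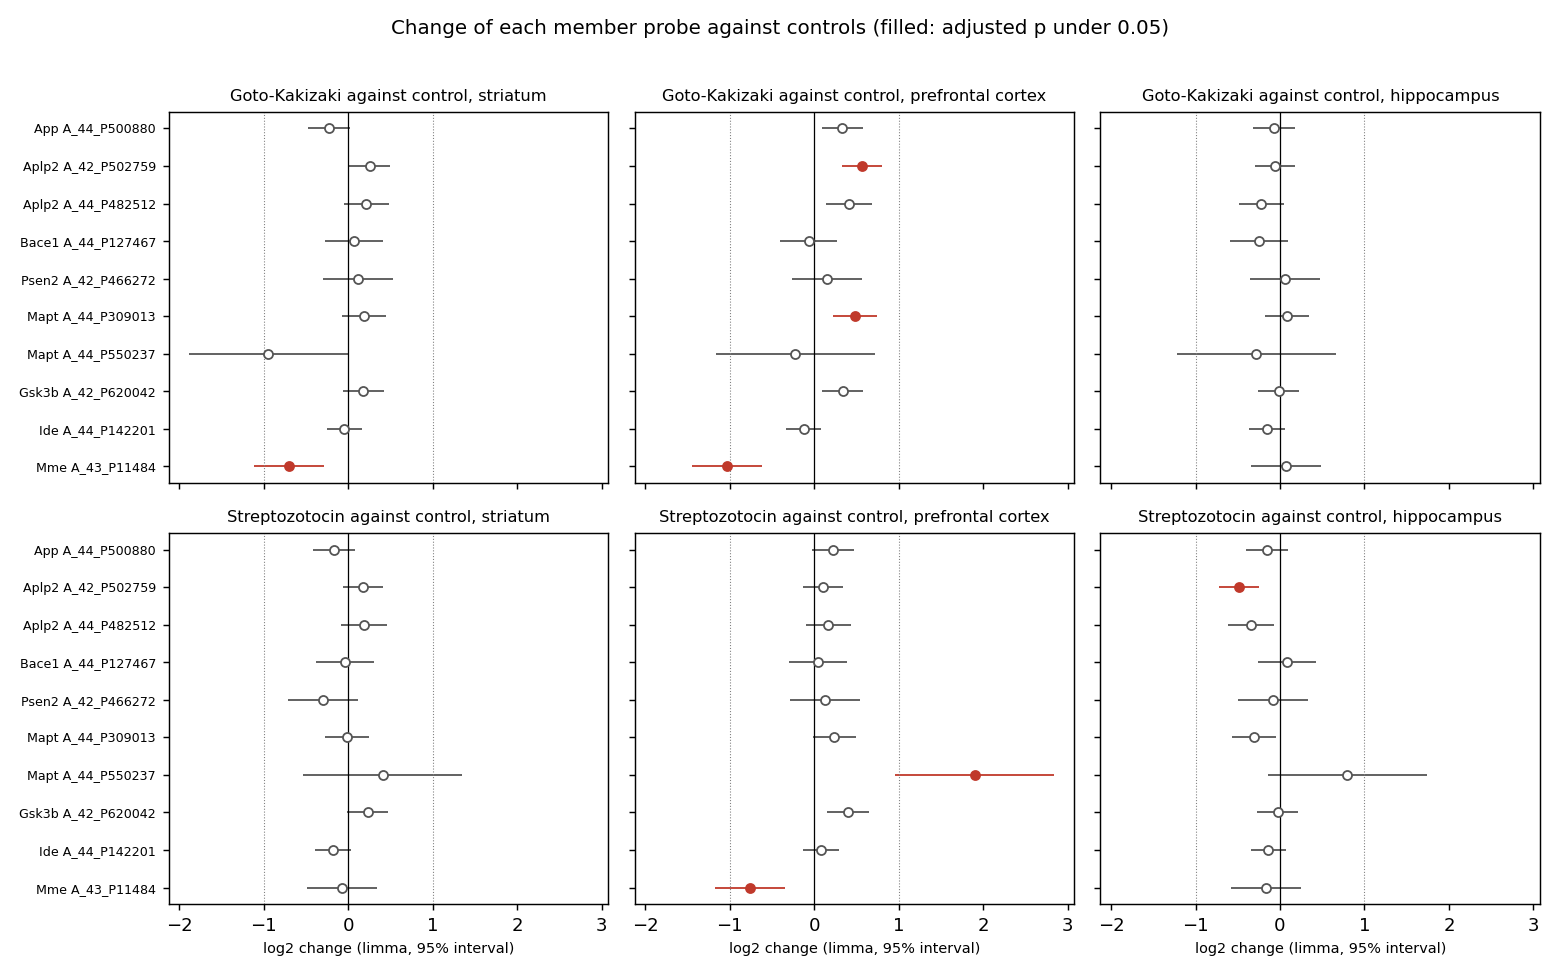
Log2 change against controls (horizontal axis) of the 10 member probes, with limma's 95% intervals, for Goto-Kakizaki rats (upper row) and STZ rats (lower row) in the striatum, prefrontal cortex and hippocampus. Filled points passed an adjusted p of 0.05 and dotted lines mark 2-fold. The filled points are 3 in the Goto-Kakizaki prefrontal cortex, 2 in the STZ prefrontal cortex, 1 each in the Goto-Kakizaki striatum and STZ hippocampus, and 0 in the other 2 panels.

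App itself did not pass in any comparison. Prefrontal App measured 4.04, 4.14 and 4.24 in Goto-Kakizaki rats, 4.00, 3.97 and 4.09 in STZ rats, and 4.00, 3.55 and 3.85 in controls. Hippocampal App measured 3.85, 3.82 and 3.93 in Goto-Kakizaki rats, 3.77, 3.67 and 3.91 in STZ rats, and 3.91, 4.07 and 3.84 in controls. Striatal App measured 3.96, 3.94 and 3.72 in Goto-Kakizaki rats, 3.78, 3.91 and 4.10 in STZ rats, and 4.04, 4.23 and 4.01 in controls. The Goto-Kakizaki prefrontal values lay above all 3 control values, without overlap, whereas the highest Goto-Kakizaki value in the striatum lay below the lowest control value. The prefrontal difference was 0.34 (95% interval 0.09 to 0.58, adjusted p = 0.086) and the striatal one -0.23 (-0.47 to 0.02, adjusted p = 0.23). Without prefrontal control replicate 1, which was the highest of its group, the prefrontal difference was 0.44 and passed (adjusted p = 0.042). In STZ rats App differed by 0.22 in the prefrontal cortex (-0.03 to 0.47), by -0.16 in the hippocampus (-0.40 to 0.09) and by -0.16 in the striatum (-0.41 to 0.08). A further probe, A_44_P1054883, which the array describes as part of the App gene without giving it the name, was measured on 23 arrays after outlier spots were left out and also passed in no comparison. It stood at 5.57, 5.67 and 5.62 in Goto-Kakizaki prefrontal cortex, against 5.38 and 5.27 on the control arrays that kept it (difference 0.29, adjusted p = 0.16).

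Among the counted members Aplp2, an amyloid precursor-like protein cut by the same secretases, was the substrate that passed. Its brighter probe, A_42_P502759, measured 4.03, 4.05 and 4.19 in Goto-Kakizaki rats, 3.56, 3.56 and 3.76 in STZ rats, and 3.66, 3.41 and 3.50 in controls in the prefrontal cortex. Its hippocampal values were 3.51, 3.57 and 3.50 in Goto-Kakizaki rats, 2.97, 3.18 and 3.16 in STZ rats, and 3.54, 3.63 and 3.59 in controls. Striatal values were 3.26, 3.60 and 3.53 in Goto-Kakizaki rats, 3.46, 3.13 and 3.57 in STZ rats, and 3.21, 3.28 and 3.13 in controls. All 3 Goto-Kakizaki prefrontal pools lay above every other array of the series for this probe, and all 3 STZ hippocampal pools lay below every hippocampal pool of the other groups. The prefrontal rise in Goto-Kakizaki rats was 0.57 (SE 0.12, 1.48-fold, adjusted p = 0.0028), and leaving out any pool kept it between 0.51 and 0.64 with adjusted p-values of 0.0035 to 0.022. With normexp background correction it was 0.64 and did not pass (adjusted p = 0.083). The hippocampal fall in STZ rats was -0.49 (SE 0.12, adjusted p = 0.027), and it did not pass without any 1 of the 6 pools (-0.52 to -0.42, adjusted p of 0.054 to 0.13). The hippocampal STZ arrays lay on slides 5 to 7 and the hippocampal control arrays on slides 1 and 2. Slide and group therefore cannot be told apart for any gene of that comparison.

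The second Aplp2 probe, A_44_P482512, moved in the same directions without passing. It stood at -0.07, 0.05 and 0.06 in Goto-Kakizaki rats, -0.14, -0.28 and -0.27 in STZ rats, and -0.15, -0.57 and -0.48 in controls in the prefrontal cortex, a difference between Goto-Kakizaki rats and controls of 0.41 (0.14 to 0.69, adjusted p = 0.051) with no overlap. Without prefrontal control replicate 1 this was 0.54 and passed (adjusted p = 0.018). Its hippocampal difference in STZ rats was -0.34 (-0.61 to -0.07, adjusted p = 0.2). Over 27 arrays, which share slides and animals, the 2 probes correlated with r = 0.83, and their deviations from the group means with r = 0.34. A further probe, A_44_P415143, carries a similarity to mouse Aplp2 in its description and no gene name, and it ran the other way in the prefrontal cortex. There it measured -5.55, -6.10 and -6.13 in Goto-Kakizaki rats, -6.55, -5.77 and -7.38 in STZ rats, and -3.91, -4.03 and -4.56 in controls. It was well above background on 1 of 3 Goto-Kakizaki arrays, 0 of 3 STZ arrays and 3 of 3 control arrays of that region, and on 0 arrays of the hippocampus and striatum, so no fold change of it is given.

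Aplp1, the other amyloid precursor-like gene, has its products mainly in neurons. Prefrontal values of A_42_P827480 were 3.49, 3.88 and 4.07 in Goto-Kakizaki rats, 2.97, 2.96 and 3.02 in STZ rats, and 3.36, 2.79 and 3.21 in controls. Hippocampal values were 3.34, 3.47 and 3.35 in Goto-Kakizaki rats, 3.03, 3.10 and 3.17 in STZ rats, and 3.55, 3.85 and 3.70 in controls. In the striatum they were 3.52, 4.11 and 3.60 in Goto-Kakizaki rats, 3.38, 3.41 and 3.86 in STZ rats, and 3.55, 2.98 and 3.39 in controls. The Goto-Kakizaki prefrontal pools lay above the controls without overlap, and in the hippocampus the pools of both models lay below the controls, with a Goto-Kakizaki difference of -0.31 (-0.70 to 0.08, adjusted p = 0.48). The prefrontal rise in Goto-Kakizaki rats was 0.69 (SE 0.19, 1.62-fold, adjusted p = 0.022). It was 0.66 without Goto-Kakizaki replicate 2, 0.57 without replicate 3 and 0.53 without control replicate 2, with adjusted p-values of 0.077, 0.13 and 0.15, and 0.68 with normexp background correction (adjusted p = 0.27). The hippocampal difference in STZ rats was -0.60 (-0.99 to -0.21) and did not pass (adjusted p = 0.1).

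Bace1, the beta-secretase, passed in none of the comparisons. Its prefrontal values were -3.44, -3.41 and -3.48 in Goto-Kakizaki rats, -3.41, -3.38 and -3.20 in STZ rats, and -3.43, -3.52 and -3.18 in controls. Its hippocampal values were -3.60, -3.61 and -3.81 in Goto-Kakizaki rats, -3.55, -2.97 and -3.50 in STZ rats, and -3.40, -3.42 and -3.45 in controls. In the striatum Bace1 stood at -3.53, -2.76 and -3.33 in Goto-Kakizaki rats, -3.17, -3.25 and -3.51 in STZ rats, and -3.31, -3.24 and -3.28 in controls. The 3 Goto-Kakizaki hippocampal pools lay below the 3 controls, with a difference of -0.25 (-0.59 to 0.09, adjusted p = 0.53), and the groups overlapped in the other 5 comparisons with controls. Striatal Goto-Kakizaki replicate 2 and hippocampal STZ replicate 2 stood well above the other pools of their groups.

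Psen2, a presenilin, likewise did not pass. Prefrontal Psen2 stood at 2.40, 2.51 and 2.69 in Goto-Kakizaki rats, 2.40, 2.60 and 2.53 in STZ rats, and 2.17, 2.40 and 2.57 in controls. Its hippocampal levels were 2.66, 2.65 and 2.56 in Goto-Kakizaki rats, 2.37, 2.71 and 2.37 in STZ rats, and 2.72, 2.45 and 2.52 in controls. Its striatal levels were 2.41, 3.31 and 2.49 in Goto-Kakizaki rats, 2.31, 2.37 and 2.32 in STZ rats, and 2.37, 3.09 and 2.41 in controls. Groups overlapped in all 6 comparisons with controls, and the changes ran from -0.29 in the STZ striatum (-0.71 to 0.12) to 0.15 in the Goto-Kakizaki prefrontal cortex (-0.26 to 0.57). Replicate 2 of Goto-Kakizaki rats and of controls stood above the rest in the striatum.

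Ide, which degrades both insulin and amyloid-beta, showed the smallest range of the 10 probes. Prefrontal Ide measured -0.48, -0.57 and -0.52 in Goto-Kakizaki rats, -0.39, -0.45 and -0.11 in STZ rats, and -0.33, -0.47 and -0.40 in controls. In the hippocampus Ide measured -0.40, -0.37 and -0.54 in Goto-Kakizaki rats, -0.51, -0.40 and -0.34 in STZ rats, and -0.27, -0.38 and -0.19 in controls. Striatal Ide measured -0.29, -0.46 and -0.22 in Goto-Kakizaki rats, -0.45, -0.44 and -0.48 in STZ rats, and -0.14, -0.38 and -0.31 in controls. All 27 values lay between -0.57 and -0.11, and no difference from controls exceeded 0.18 in either direction. The widest interval edge among the 6 comparisons with controls was -0.39, so changes of Ide beyond that size lie outside these intervals.

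Mme, which encodes neprilysin, was the member whose level depended most on region. In the striatum it stood at 0.63, -0.45 and 0.37 in Goto-Kakizaki rats, 0.83, 0.97 and 0.65 in STZ rats, and 0.81, 0.86 and 1.00 in controls. Its prefrontal values were -3.42, -3.87 and -3.83 in Goto-Kakizaki rats, -3.47, -3.57 and -3.27 in STZ rats, and -2.66, -2.99 and -2.38 in controls. Hippocampal Mme was -3.17, -3.29 and -3.30 in Goto-Kakizaki rats, -3.43, -3.43 and -3.61 in STZ rats, and -3.28, -3.39 and -3.32 in controls. In the prefrontal cortex every pool of both diabetic models lay below every control pool, and in the striatum the Goto-Kakizaki pools lay below the controls, with replicate 2 far below the other pools of its group.

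Prefrontal Mme averaged -3.71 ± 0.25 in Goto-Kakizaki rats and -2.67 ± 0.31 in controls (SD, n = 3 pools each), a change of -1.04 (SE 0.20, 95% interval -1.45 to -0.62, adjusted p = 0.0017). Leaving out any pool gave -1.19 to -0.89 with adjusted p-values of 0.0014 to 0.017, and the change was under 2-fold without Goto-Kakizaki replicate 2, Goto-Kakizaki replicate 3 or control replicate 3. With normexp background correction it was -0.52 and did not pass (adjusted p = 0.61). Goto-Kakizaki prefrontal arrays lay on slides 1 and 3 and the control arrays on slides 5 to 7, so slide and group cannot be told apart for any gene of that comparison. In STZ rats, which averaged -3.44 ± 0.16, the prefrontal change was -0.76 (SE 0.20, adjusted p = 0.043), and within slides 5, 6 and 7, each with 1 array of both groups, it was -0.59, -0.89 and -0.81. Equal replicate numbers of these 2 groups shared a slide, and the replicate block gave the same change with an adjusted p = 0.054. The STZ change kept its call only without control replicate 2 among the 6 pools, and ended at -0.62 (adjusted p = 0.21) without control replicate 3. With normexp background correction it was 0.04 (adjusted p = 0.95) with the median of all probes at 0.21, so that Mme lay below that median without passing. With no filter on dim probes the change of -0.76 did not pass (adjusted p = 0.061).

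The summed level of the 8 striatal markers was 10.4, 12.0 and 11.3 on the Goto-Kakizaki prefrontal arrays, 9.83, 9.84 and 10.6 on the STZ arrays and 9.18, 8.25 and 23.1 on the control arrays. Each marker of the list was well above background on at least 1 array of each of these groups. By gene, 4 of the 8 were lower in Goto-Kakizaki rats than in controls (Pde10a, Adora2a, Rgs9 and Drd1, each past 2-fold) and 2 in STZ rats (Rgs9 and Adora2a), with median changes of -1.27 and -0.72. Control replicate 3 had both the highest striatal sum and the highest prefrontal Mme. Control replicates 1 and 2 had lower sums than all 6 diabetic pools and higher Mme. The sum weighs bright markers most, the by-gene medians weigh all 8 alike, and the 2 measures did not run together. The 4 meningeal markers summed to 4.57 to 11.6 in Goto-Kakizaki rats, 8.37 to 9.80 in STZ rats and 5.19 to 22.2 in controls. The 6 oligodendrocyte markers summed to 93.5 to 114 in Goto-Kakizaki rats and 103 to 110 in STZ rats, against 126 to 157 in controls, without overlap. Of the 7 neuronal markers 2 were higher in the Goto-Kakizaki prefrontal cortex, Syn1 at 0.83 and Syt1 at 0.64, with a median change of 0.34, and 0 passed in STZ rats, with a median of 0.22. Their sums were 80.9 to 148 in Goto-Kakizaki rats, 135 to 162 in STZ rats and 116 to 135 in controls. The lowest of these sums can reflect a bright spot left out as an outlier, which was not tested. The part of these markers in the prefrontal changes of Mme, Aplp2, Aplp1 and Mapt was not tested.

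**Figure D3:**
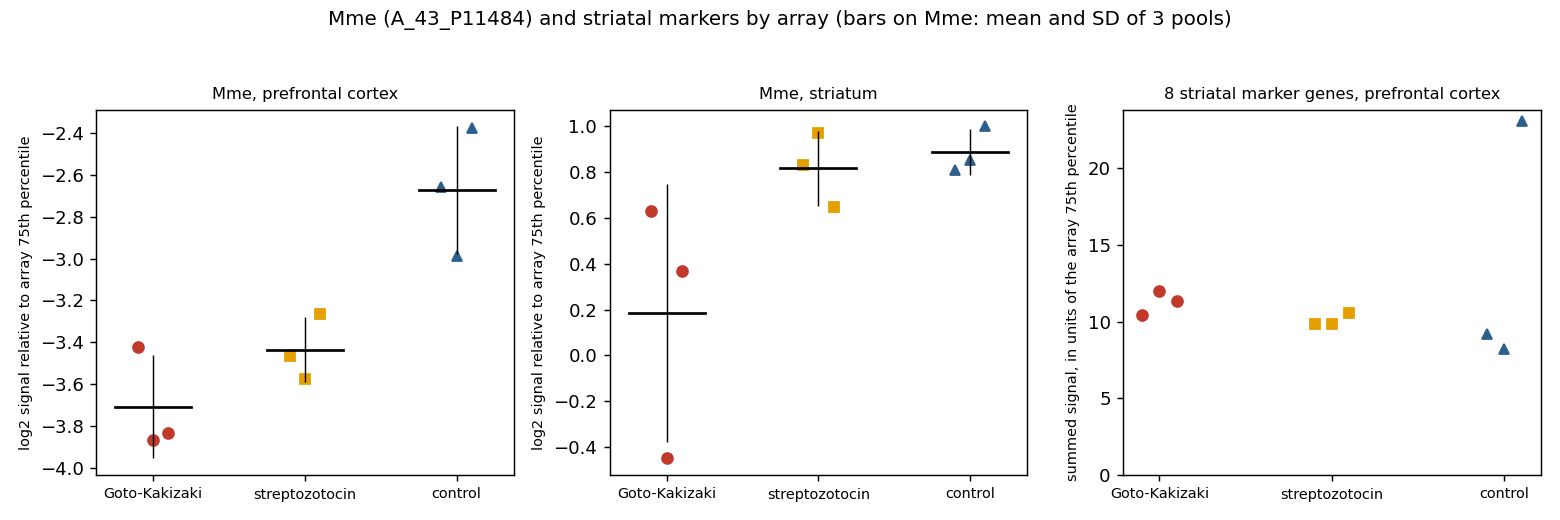
Log2 signal of Mme relative to the array's 75th percentile in the prefrontal cortex (left) and striatum (middle), and the summed linear signal of 8 striatal markers in the prefrontal cortex in units of that percentile (right), 1 point per pool, with bars for the mean and SD of 3 pools on the Mme panels. Prefrontal Mme lies between -3.87 and -3.27 in Goto-Kakizaki and STZ rats and between -2.99 and -2.38 in controls, and 1 control pool stands at 23.1 in the marker sum.

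Striatal Mme averaged 0.18 ± 0.56 in Goto-Kakizaki rats and 0.89 ± 0.10 in controls (SD, n = 3 pools each), a change of -0.70 (SE 0.20, adjusted p = 0.022). Without Goto-Kakizaki replicate 2 it was -0.39 (adjusted p = 0.12), without control replicate 2 -0.72 (adjusted p = 0.054) and without control replicate 3 -0.65 (adjusted p = 0.074). On slide 4, which held all 3 Goto-Kakizaki arrays and 1 control array, the difference was -0.63, and with the slide as a fixed block it did not pass (adjusted p = 0.79). Striatal marker sums were 111, 212 and 153 in Goto-Kakizaki rats, against 201, 256 and 161 in controls, and replicate 2, the lowest in Mme, was the highest of its group in the marker sum. By gene, 1 of the 8 was lower in the Goto-Kakizaki striatum, Pde10a at -1.83, and 1 of 6 oligodendrocyte markers was lower, Mobp at -1.13. The part of these markers in the striatal Mme result was not tested. In STZ rats striatal Mme changed by -0.07 (-0.49 to 0.34, adjusted p = 0.86), and hippocampal Mme by 0.07 in Goto-Kakizaki rats and by -0.16 in STZ rats, neither past the threshold. A further probe whose description names neprilysin, A_44_P609721, was well above background on all 9 striatal arrays, and in the prefrontal cortex on 0 of 3 Goto-Kakizaki arrays, 1 of 3 STZ arrays and 2 of 3 control arrays. Its prefrontal readings were -6.19, -7.34 and -7.54 in Goto-Kakizaki rats, -5.78, -6.37 and -6.54 in STZ rats, and -4.89, -6.21 and -5.54 in controls. Striatal readings of that probe were -2.53, -2.95 and -2.65 in Goto-Kakizaki rats, -2.13, -2.03 and -2.24 in STZ rats, and -2.36, -2.56 and -2.34 in controls.

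Mapt was read by 2 probes that did not run together. A_44_P309013 measured 3.53, 3.70 and 3.77 in Goto-Kakizaki rats, 3.39, 3.29 and 3.57 in STZ rats, and 3.16, 3.20 and 3.18 in controls in the prefrontal cortex. Its hippocampal values were 3.45, 3.39 and 3.50 in Goto-Kakizaki rats, 2.93, 3.13 and 3.10 in STZ rats, and 3.36, 3.46 and 3.26 in controls. Its striatal values were 3.16, 3.49 and 3.20 in Goto-Kakizaki rats, 3.16, 2.91 and 3.16 in STZ rats, and 3.12, 3.33 and 2.83 in controls. The prefrontal pools of Goto-Kakizaki rats, and those of STZ rats, lay above the 3 close control values, and the hippocampal STZ pools lay below the controls.

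The prefrontal rise of A_44_P309013 in Goto-Kakizaki rats was 0.49 (SE 0.12, 1.40-fold, adjusted p = 0.016). It was 0.47, 0.43 and 0.48 without Goto-Kakizaki replicate 2, Goto-Kakizaki replicate 3 and control replicate 3, with adjusted p-values of 0.057, 0.083 and 0.054, and 0.48 with normexp background correction (adjusted p = 0.23). In STZ rats the prefrontal difference was 0.24 (-0.02 to 0.50, adjusted p = 0.38) and the hippocampal one -0.31 (-0.57 to -0.05, adjusted p = 0.23).

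A_44_P550237, the other Mapt probe, measured 1.79, 2.55 and 2.98 in Goto-Kakizaki rats, 4.44, 4.38 and 4.87 in STZ rats, and 2.47, 2.53 and 3.00 in controls in the prefrontal cortex. In the hippocampus it gave 2.52, 3.03 and 2.99 in Goto-Kakizaki rats, 3.89, 3.79 and 4.08 in STZ rats, and 2.95, 3.26 and 3.16 in controls. In the striatum it gave 2.21, 2.80 and 2.39 in Goto-Kakizaki rats, 3.67, 3.61 and 4.17 in STZ rats, and 2.45, 5.15 and 2.64 in controls. All 9 STZ arrays lay above all 9 Goto-Kakizaki arrays, and above 8 of 9 control arrays, and striatal control replicate 2, at 5.15, was the highest of the 27. The STZ arrays lay on 6 of the 7 slides.

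The prefrontal rise of this probe in STZ rats was 1.90 (SE 0.45, 3.73-fold, 95% interval 0.96 to 2.84, adjusted p = 0.026). Within slides 5, 6 and 7 the difference was 1.86, 1.87 and 1.98, and with the slide as a fixed block it was 1.90 and did not pass (adjusted p = 0.14). With 1 pool of the groups compared left out it lay between 1.75 and 2.07 and passed only without STZ replicate 2 (adjusted p of 0.042 to 0.14). The fit shares 1 spread per probe over all groups, and striatal controls had an SD of 1.51 for this probe. The prefrontal SDs were 0.27 in STZ rats and 0.29 in controls, and the hippocampal ones 0.15 and 0.16. The striatal control spread thus enters the prefrontal and hippocampal tests of this probe. In the hippocampus the STZ difference was 0.80 (-0.15 to 1.74, adjusted p = 0.47) without overlap, and in the striatum 0.41 (-0.54 to 1.35, adjusted p = 0.64), which became 1.27 (adjusted p = 0.019) without striatal control replicate 2. In Goto-Kakizaki rats the differences from controls were -0.22 in the prefrontal cortex, -0.28 in the hippocampus and -0.95 in the striatum (adjusted p = 0.84, 0.88 and 0.18). The striatal one was -1.43 (adjusted p = 0.038) without striatal control replicate 1, which kept replicate 2, at 5.15, among the controls. Striatal control replicates 1 and 3, at 2.45 and 2.64, lay within the Goto-Kakizaki range of 2.21 to 2.80. Over the 27 arrays the 2 Mapt probes correlated with r = -0.07, and their deviations from group means with r = 0.66.

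**Figure D4:**
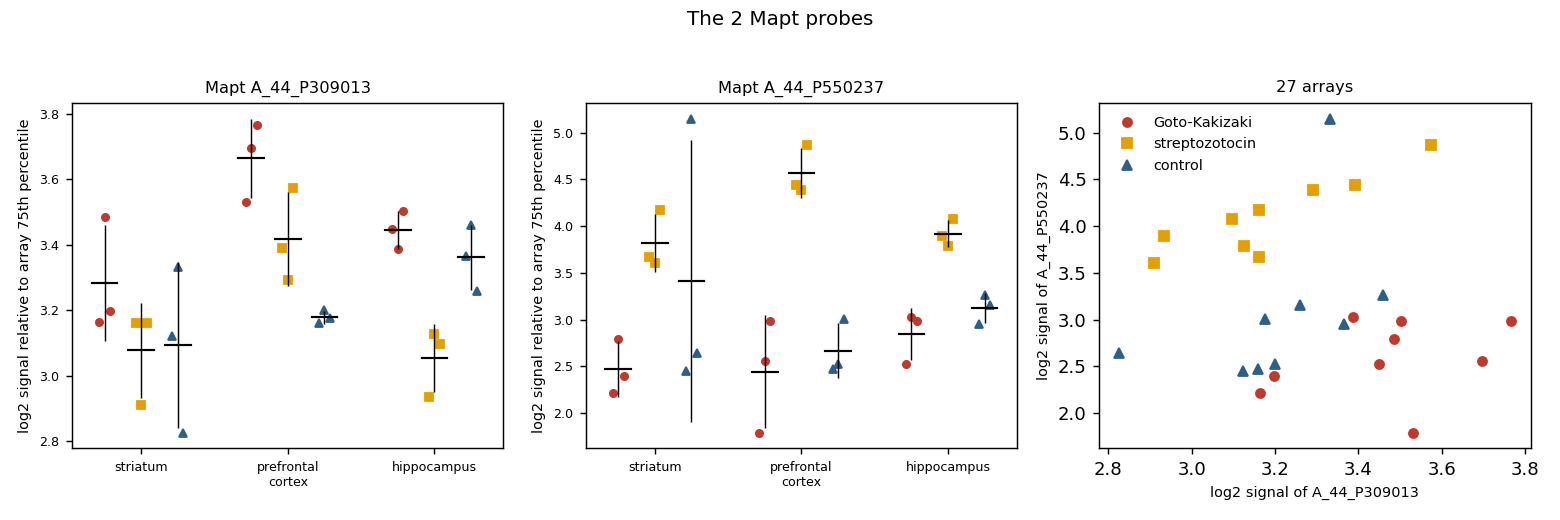
Log2 signal relative to the array's 75th percentile of Mapt A_44_P309013 (left) and A_44_P550237 (middle) by region, with bars for the mean and SD of 3 pools, and of both probes against each other on 27 arrays (right), for Goto-Kakizaki rats (circles), STZ rats (squares) and controls (triangles). On A_44_P550237 the 9 STZ arrays lie above the 9 Goto-Kakizaki arrays, and 1 striatal control array stands at 5.15.

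Gsk3b did not pass against controls in any region. Prefrontal Gsk3b measured 1.74, 1.55 and 1.48 in Goto-Kakizaki rats, 1.67, 1.48 and 1.81 in STZ rats, and 1.33, 1.26 and 1.16 in controls. Hippocampal Gsk3b measured 1.31, 1.40 and 1.24 in Goto-Kakizaki rats, 1.19, 1.36 and 1.37 in STZ rats, and 1.15, 1.43 and 1.41 in controls. Gsk3b in the striatum measured 1.80, 1.95 and 1.85 in Goto-Kakizaki rats, 1.97, 1.80 and 2.00 in STZ rats, and 1.84, 1.76 and 1.47 in controls. In the prefrontal cortex all 6 diabetic pools lay above the 3 controls. The differences there were 0.34 in Goto-Kakizaki rats (0.09 to 0.58, adjusted p = 0.079) and 0.40 in STZ rats (0.16 to 0.64, adjusted p = 0.07), and the STZ difference passed at 0.49 without STZ replicate 2 (adjusted p = 0.042).

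Set directly against STZ rats, Goto-Kakizaki rats had lower Mapt A_44_P550237 and higher Aplp2. In no region did a slide hold arrays of both models, so slide and group cannot be told apart in any of these comparisons. In the prefrontal cortex 1 of 10 probes was called (background 3.53%) and 2 passed at any size (15.8%): Mapt A_44_P550237 at -2.12 (SE 0.45, adjusted p = 0.0031; -2.39 to -1.80 with any pool left out) and Aplp2 A_42_P502759 at 0.46 (SE 0.12, adjusted p = 0.0087). Aplp1, outside the count, differed by 0.83 (SE 0.19, adjusted p = 0.0044). In the striatum 1 was called (4.94%) and 2 passed at any size (16.1%): Mapt A_44_P550237 at -1.35 (SE 0.45, adjusted p = 0.047) and Mme at -0.63 (SE 0.20, adjusted p = 0.037). The Mapt difference did not pass without any 1 of the 6 pools (-1.52 to -1.17, adjusted p of 0.078 to 0.14), and the Mme difference did not pass without Goto-Kakizaki replicate 2 (-0.32, adjusted p = 0.25) or without any of the 3 STZ pools (-0.72 to -0.56, adjusted p of 0.055 to 0.13). In the hippocampus none was called by limma (2.76%), with 3 at an unadjusted p under 0.05 and 0 by the methods' t-test with adjustment, and Aplp2 A_42_P502759 passed at any size (8.7%) at 0.43 (SE 0.12, adjusted p = 0.022). That difference did not pass without any of the 3 Goto-Kakizaki pools or without STZ replicate 1 (0.36 to 0.44, adjusted p of 0.062 to 0.12). All 5 choroid plexus markers were higher in the Goto-Kakizaki than in the STZ hippocampus, each past 2-fold and with a median difference of 2.72, and their part in this difference was not tested.

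Between regions of control rats the question was how the members are distributed, and Mme stood apart. Striatal Mme, at 0.89 ± 0.10, was 18.6 times the hippocampal level of -3.33 ± 0.06 (log2 difference 4.22, SE 0.20, adjusted p = 1.9e-12) and 11.8 times the prefrontal level of -2.67 ± 0.31 (3.56, SE 0.20, adjusted p = 7.9e-11; SD, n = 3 pools each). On slides 5 and 6, which held 1 array of both the striatum and the prefrontal cortex, the difference between these regions was 3.84 and 3.38. No slide held hippocampal control arrays together with prefrontal or striatal control arrays. Slide and region therefore cannot be told apart in the comparisons of control rats with the hippocampus. Prefrontal Mme exceeded hippocampal Mme by 0.66 (SE 0.20, adjusted p = 0.027), which passed only without prefrontal control replicate 2 among the 6 pools (0.51 to 0.81). The order of levels in controls was striatum, prefrontal cortex, hippocampus, while in Goto-Kakizaki rats the prefrontal pools, at -3.87 to -3.42, lay below the hippocampal pools, at -3.30 to -3.17.

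In striatum against hippocampus 1 of 10 probes was called (8.97%) and 4 passed at any size (29.5%). Gsk3b was higher in the striatum by 0.36 (SE 0.12, adjusted p = 0.023), and Aplp2 was lower by both probes, A_42_P502759 at -0.38 (SE 0.12, adjusted p = 0.017) and A_44_P482512 at -0.35 (SE 0.13, adjusted p = 0.046). In striatum against prefrontal cortex 1 was called (8.79%) and 3 passed at any size (25.0%), namely Mme, Gsk3b at 0.44 (SE 0.12, adjusted p = 0.0076) and Aplp2 A_42_P502759 at -0.32 (SE 0.12, adjusted p = 0.049). In prefrontal cortex against hippocampus no probe was called by limma (5.14%) and 1 passed at any size (15.7%), Mme, which was also the 1 probe with an unadjusted p under 0.05, and 0 passed the methods' t-test with adjustment. Aplp1 was lower in the prefrontal cortex than in the hippocampus by 0.58 on the log2 scale (difference -0.58, SE 0.19, adjusted p = 0.038). For Aplp1, as for Gsk3b, Aplp2 and Mme against the hippocampus, slide and region cannot be told apart. App, Bace1, Psen2, Ide and both Mapt probes did not pass in any of the 3 region comparisons with all pools. App passed in striatum against prefrontal cortex without prefrontal control replicate 1 (0.39, adjusted p = 0.034), and Mapt A_44_P309013 in striatum against hippocampus without striatal control replicate 2 (-0.39, adjusted p = 0.028). With single pools left out, Gsk3b in striatum against prefrontal cortex passed each time (0.37 to 0.55, adjusted p of 0.0022 to 0.042 by limma). By the methods' t-test with adjustment it did not pass. Of the other small differences, Aplp2 A_42_P502759 in striatum against hippocampus was lost without 2 of 6 pools (largest adjusted p = 0.059), Gsk3b there without 3 (0.13), Aplp1 without 4 (0.21), Aplp2 A_44_P482512 without 5 (0.17) and Aplp2 A_42_P502759 in striatum against prefrontal cortex without 5 (0.21).

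Whether a model's effect differed between regions was tested as an interaction. Only Aplp2 A_42_P502759 passed, at any size: its STZ effect was -0.49 in the hippocampus and 0.18 in the striatum, a difference of -0.66 (SE 0.16, adjusted p = 0.045), in the contrast where 1.59% of probes passed. It did not pass without 10 of the 12 pools left out singly (-0.79 to -0.57, adjusted p of 0.016 to 0.14). Slide and group cannot be told apart in either region, since the striatal STZ arrays lay on slides 1 to 3 and the striatal control arrays on slides 4 to 6. For the STZ effect in the hippocampus against the prefrontal cortex, and in the prefrontal cortex against the striatum, no probe of the whole array passed (0.0% in both). There 6 and 3 of 10 member probes had an unadjusted p under 0.05. For the Goto-Kakizaki effect 0 of 10 passed by limma in hippocampus against striatum (0.721%), hippocampus against prefrontal cortex (0.298%) and prefrontal cortex against striatum (0.167%), with 2, 6 and 1 at an unadjusted p under 0.05. The share of all tested probes at that unadjusted threshold is not given for any of these contrasts. The Mme interaction between hippocampus and prefrontal cortex in Goto-Kakizaki rats was 1.11 (SE 0.28, adjusted p = 0.098), and that between hippocampus and striatum was 0.78 (adjusted p = 0.15), or 1.00 (adjusted p = 0.043) without striatal Goto-Kakizaki replicate 1. That omission kept replicate 2, which at -0.45 lay far below the other pools of its group. Without replicate 2 the striatal Mme change against controls shrank to -0.39. The interactions of both Mapt probes had adjusted p-values of 0.39 or more. The tests therefore do not show that the Mme or Mapt changes differed between regions.

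The neighbours of the members in the pathway were read from 7 lists of 46 genes, of which 44 had a probe and 43 were tested, by the brightest probe of each gene. At any size 5 were higher and 0 lower in the Goto-Kakizaki prefrontal cortex, 4 higher and 1 lower in the Goto-Kakizaki striatum, and 0 higher and 1 lower in the Goto-Kakizaki hippocampus. In STZ rats 0 passed in the prefrontal cortex, 1 was higher and 3 were lower in the hippocampus, and 1 was higher and 1 lower in the striatum. In Goto-Kakizaki rats these were 11.6% of tested pathway genes in the prefrontal cortex, 11.6% in the striatum and 2.33% in the hippocampus, against 8.8%, 13.8% and 5.11% of all tested probes, and in STZ rats they were 0%, 4.65% and 9.3% in the prefrontal cortex, striatum and hippocampus, against 2.67%, 3.25% and 2.2%. No test set these shares against each other. The alpha-secretases (Adam9, Adam10 and Adam17) and the 8 tested genes of amyloid carriers, clearance and degradation, among them Apoe, Clu and Ece1, had no member past the threshold against controls in any region by limma.

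Among secretase genes, Aph1a, a scaffold subunit of gamma-secretase, was higher in the STZ hippocampus, at 2.67 ± 0.12 in STZ rats and 1.40 ± 0.29 in controls (change 1.27, SE 0.33, adjusted p = 0.044), and its prefrontal change of 1.18 had an adjusted p = 0.056. Leaving out any 1 of the 6 hippocampal pools gave 1.10 to 1.36 with adjusted p-values of 0.095 to 0.17. Bace2, the homologue of Bace1, was lower in STZ rats in the hippocampus (change -0.66, SE 0.17, adjusted p = 0.042) and in the striatum (-0.65, SE 0.17, adjusted p = 0.037), and either was lost without 5 of 6 single pools (adjusted p up to 0.2 and 0.12).

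Of 10 adaptors and sorting proteins of App, Sorl1, a receptor that keeps App away from the secretases, rose in Goto-Kakizaki rats in the striatum and the prefrontal cortex, with a hippocampal difference of 0.33 that did not pass (adjusted p = 0.18). Its prefrontal level was 3.79 ± 0.12 in Goto-Kakizaki rats and 3.15 ± 0.08 in controls (change 0.63, SE 0.13, adjusted p = 0.0029), and with any pool left out it stayed between 0.58 and 0.70 with adjusted p-values of 0.0047 to 0.021, but it did not pass with normexp background correction (0.60, adjusted p = 0.16). In the striatum it stood at 2.17 ± 0.13 in Goto-Kakizaki rats and 1.72 ± 0.23 in controls (change 0.45, adjusted p = 0.023), and was 0.36 (adjusted p = 0.12) without control replicate 2, 0.41 (adjusted p = 0.078) without control replicate 3 and 0.39 (adjusted p = 0.082) without Goto-Kakizaki replicate 3. Apba3, an adaptor that binds the App tail, was lower in the Goto-Kakizaki hippocampus (change -0.47, SE 0.13, adjusted p = 0.032) and passed only without control replicate 2 among the 6 pools (adjusted p up to 0.13). The median change of the 10 genes was 0.20 in the Goto-Kakizaki prefrontal cortex, against 0.01 over all probes.

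Among 11 tested genes of tau phosphorylation, 3 rose in the Goto-Kakizaki prefrontal cortex, where 8.8% of all tested probes passed and the list's median change was 0.22. No test set the list against other genes. Gsk3a, the sister kinase of Gsk3b, stood at -1.33 ± 0.21 in Goto-Kakizaki rats and -1.98 ± 0.09 in controls (change 0.65, SE 0.14, adjusted p = 0.0039), and fell in the STZ hippocampus, at -2.27 ± 0.01 in STZ rats and -1.58 ± 0.07 in controls (change -0.70, SE 0.14, adjusted p = 0.0077), both past the threshold with any pool left out but not with normexp background correction (0.62 and -0.63, adjusted p = 0.4 and 0.73). Fyn, a Src-family kinase that phosphorylates tau on tyrosine, rose by 0.51 (SE 0.12, adjusted p = 0.0068), and had an adjusted p = 0.053 without Goto-Kakizaki replicate 3 or control replicate 2. Dyrk1a, a kinase that primes tau for Gsk3b, rose by 0.30 in the Goto-Kakizaki prefrontal cortex (adjusted p = 0.041) and was lower by 0.38 on the log2 scale in the STZ hippocampus (change -0.38, adjusted p = 0.026), and 5 of 6 single pools left out ended both calls. In the STZ hippocampus slide and group cannot be told apart, for Gsk3a and Dyrk1a as for Aph1a and Bace2, and leaving out pools does not separate them. Cdk5r1, the p35 activator of the tau kinase Cdk5, rose in the Goto-Kakizaki striatum by 0.63 (SE 0.15, adjusted p = 0.0068), with adjusted p-values of 0.0041 to 0.046 over single pools left out, but it was 0.00 with normexp background correction (adjusted p = 0.99). The 1 gene that was lower there was Ppp2ca, a catalytic subunit of the phosphatase PP2A that removes phosphate from tau, at 4.37 ± 0.13 in Goto-Kakizaki rats and 4.85 ± 0.22 in controls (change -0.48, SE 0.13, adjusted p = 0.018), named after its value was seen.

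Of 5 tested microtubule proteins other than tau, Map2, the dendritic relative of tau, rose in the striatum of both models, at 1.56 ± 0.10 in Goto-Kakizaki rats and 1.38 ± 0.12 in STZ rats, against 0.57 ± 0.28 in controls. The change was 0.99 in Goto-Kakizaki rats (SE 0.17, adjusted p = 0.00066; 0.88 to 1.15 with any pool left out) and 0.81 in STZ rats (SE 0.17, adjusted p = 0.013; adjusted p of 0.05, 0.063 and 0.06 without control replicate 2, control replicate 3 and STZ replicate 1). Map1a rose by 0.75 in the Goto-Kakizaki striatum (SE 0.24, adjusted p = 0.039), and was 0.43 (adjusted p = 0.21) without Goto-Kakizaki replicate 2 and 0.49 (adjusted p = 0.22) without control replicate 2. In the STZ striatum slide and group cannot be told apart, for Map2 as for Bace2. The 6 astrocyte markers summed to 65.9 to 69.1 in the Goto-Kakizaki striatum and 77.0 to 79.2 in the STZ striatum, against 58.7 to 63.7 in controls, without overlap. Of these, 1 passed in Goto-Kakizaki rats, Aldh1l1 at 0.61, and 1 in STZ rats, S100b at 5.66. The 5 endothelial markers summed to 19.3 to 25.9 in Goto-Kakizaki rats and 14.2 to 18.5 in STZ rats, against 16.4 to 17.2 in controls. Of the 7 neuronal markers Syt1 was higher in both models, at 0.88 and 0.63. The part of these markers in the striatal changes was not tested. With the slide as a fixed block, the striatal Goto-Kakizaki changes of Map2, Map1a, Sorl1 and Cdk5r1 were 0.67, 0.49, 0.19 and 0.44, and none passed.

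The probes of other named genes whose pattern was most like that of a member were found over the 27 arrays, which share slides and animals, among 23517 probes well above background on every array. The nearest to App were Prkar1a (r = 0.77), Cops4 (0.76) and Tpm1 (0.76). The nearest to Mapt A_44_P309013 were Ddx24 (0.91), Csnk2b (0.91) and Lynx1 (0.90). The nearest to Mme were Nexn (0.99), Ebf1 (0.98) and Skap2 (0.98), whose likeness rests mainly on the level in the striatum.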

How the data were processed

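RNA from 27 pools was labelled with Cy3 and hybridised to 1-colour Agilent rat whole genome arrays. The authors extracted spot intensities with Agilent Feature Extraction 9.1, and the deposited processed intensity has a fitted background surface subtracted, with no scaling between arrays. The deposited series values were identical to these processed intensities. The study's own analysis normalised treated samples to the median of the controls of each region and used a t-test with a 2-fold threshold. The genome build of the probe design was not given in the sources used here.

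Here log2 processed signals were scaled to the 75th percentile of each array, and spots marked as outliers were left out. A probe entered the fit if some group had it well above background on 2 or 3 of its 3 arrays, which held for 32078 of 41012. A comparison used those that passed in any group of the region or regions compared, including groups that were not themselves compared. Between 67.4% and 75.3% of probes were well above background per array, which limits precision for dim probes, as does the number of arrays. All 9 groups were fitted in limma 3.58.1 (R 4.3.3, version 1.17.8 of data.table), with Benjamini-Hochberg adjustment within each comparison. A call needed an adjusted p under 0.05 and a 2-fold change. Summaries and figures used Python 3.11.15, numpy 2.4.6, pandas 2.3.3, scipy 1.17.1 and matplotlib 3.10.9. The fit was tested on simulated data.

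Probes took the gene name given by the array. For other genes, accessions, symbols and synonyms were matched to the RefSeq gene names (10735, 5577 and 3730 probes, with 20970 unmatched). Probes called at any size against controls, and the brightest of each member, have a value for every array. For other genes of the pathway the brightest probe was used, and at most 4 of a list, those with the smallest p, were to be named. Ppp2ca was named beyond that limit, after its value was seen. Like patterns were the 3 named probes with the highest Pearson correlation over 27 arrays.

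The members and lists were chosen with earlier results of these data known. Alternatives covered scaling, background correction, filters, outlier spots, the groups in the fit, the methods' t-test, the fold threshold, slide, the replicate number and single pools left out. The methods' t-test was Welch's test on the log2 signals scaled as above, over probes that passed the filter used here. The study's own normalisation and probe filters were not repeated, so its result is not that of the study's procedure. The slide as a fixed block, within-slide differences and all alternatives for the other genes of the pathway were added after the data were seen. Every pair of equal replicate numbers deviated together, with correlations over 0.1, in 1 comparison, STZ rats against controls in the prefrontal cortex (0.494, 0.474 and 0.716), where they shared a slide. In striatum against prefrontal cortex of controls the 2 pairs on a shared slide did so (0.548 and 0.598), and the other pair did not (-0.183). The numbers came from the sample labels, which do not tie them to a litter or day. Some genes of the lists and 1 probe sequence are not reported here.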

Additional observations from a re-analysis of the deposited data

Results flagged for a closer look

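The STZ effect on Aplp2, read by A_42_P502759, differed between hippocampus and striatum by a test of the difference itself. It was lower in the hippocampus by 0.66 on the log2 scale (hippocampus minus striatum -0.66, SE 0.16, adjusted p = 0.045 by limma). It did not pass without 10 of the 12 pools left out singly or with the replicate block (adjusted p = 0.066), and slide and group cannot be told apart in either region.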

How the results depend on the processing

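Of 40 single-probe comparisons recomputed, 24 of members and 16 of other pathway genes, 13 stayed past the threshold with any array left out. Over all settings with a test, 412 values kept direction and call, 243 kept direction and lost the call, and 1 had the other sign: prefrontal Mme in STZ rats, 0.038 with normexp background correction (adjusted p = 0.95), which lay below the median of all probes there, 0.21. Normexp ended 30 of 40 calls, the methods' t-test 37 of 39, fitting the compared groups alone 19, no filter 12, the 50th percentile 7, and quantile scaling and the slide as a random block 1 each. A stricter filter and keeping outlier spots ended 0. The slide as a fixed block could be fitted for 11 and ended 10. The cause was not tested.

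The number of called member probes in the Goto-Kakizaki prefrontal cortex, 1, was 0 under the 50th percentile, quantile scaling, normexp and the methods' t-test, 3 with no fold threshold and 0 to 1 with a pool left out. The 1 in the STZ prefrontal cortex was 0 by the methods' t-test and with the slide as a fixed block, 2 with no fold threshold and 0 to 1 with a pool left out. Between Goto-Kakizaki and STZ rats, the 1 in the prefrontal cortex was 0 by the methods' t-test and 2 with no fold threshold. The striatal 1 was 0 with no filter, the groups fitted alone, the slide as a random block, the methods' t-test or any pool left out, and 2 with no fold threshold, and the hippocampal 0 was 1 with the groups fitted alone or no fold threshold. Without a fold threshold, 1 probe passed in the Goto-Kakizaki striatum, 1 in the STZ hippocampus, 4 in striatum against hippocampus, 3 in striatum against prefrontal cortex, 1 in prefrontal cortex against hippocampus and 1 for the STZ effect between regions. Leaving out a pool gave 0 to 1 in the striatum of both models and for the Goto-Kakizaki effect between regions.

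The replicate block changed no count of called members. It ended 8 of 40 single calls, among them Aplp2 in the STZ hippocampus (adjusted p = 0.06), Mme in the STZ prefrontal cortex (0.054) and the STZ effect on Aplp2 between hippocampus and striatum (0.066). Normexp shifted the median of all probes by -0.28 in the Goto-Kakizaki striatum, 0.21 in the STZ prefrontal cortex and -0.25 in the STZ striatum, and by 0.36 and 0.40 in striatum against hippocampus and prefrontal cortex.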
